A study of Mus musculus with 5 samples.

Results

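The cytosolic ribosomal protein genes encode the proteins of the large (Rpl), small (Rps) and stalk (Rplp) parts of the ribosome. They were taken here by symbol as protein-coding genes named Rpl, Rps or Rplp followed by a digit, without the Rps6k kinases. The rule gave 90 of 21887 protein-coding genes. By role these were 43 large-subunit genes, 30 small-subunit genes, 3 stalk genes, 12 paralogues or copies and 2 genes for other proteins that carry such a symbol, Rps19bp1 and Rps23rg1. Signal was read from every counted window in the gene span with 1 kb on each side, called the locus below.

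The study mapped PU.1, a blood-cell transcription factor of the ETS family and the product of Spi1, by chromatin immunoprecipitation and sequencing (ChIP-seq) in mouse dendritic cells. Conventional dendritic cells (cDCs), specialised in presenting antigen, and plasmacytoid dendritic cells (pDCs), known for type I interferon, were grown with Flt3L from a strain labelled C56BL/6. Each cell type had 2 biological replicates precipitated with the T-20 antibody, no allele or agent is named for either, and the only input, unprecipitated chromatin, came from cDCs and served for both. Values were read counts in 329996 windows of 10 bp, and their totals were 6896416 to 11388554 per PU.1 library and 2776490 for the input. In a check of the labels at loci of cell type markers, Siglech, Bst2 and the B cell gene Pax5 had more PU.1 signal in pDCs, Zfp366, H2-Eb1 and Clec9a had more in cDCs, and 11 other tested marker loci were not called.

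Ribosomal protein genes are active in every growing cell, because each ribosome needs 1 copy of nearly every one of these proteins. Their promoters are short and strong, and many begin transcription in a run of pyrimidines, the TOP motif, which ties translation of the mRNA to mTORC1 signalling. ETS-family factors read the letters GGAA. PU.1 favours longer sites with purines before that core, such as GAGGAAGT, and other ETS factors such as GABPA favour CCGGAAGT. The genes serve here as a housekeeping set, read beside a factor known for genes of particular blood cell types.

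PU.1 libraries had counted windows at most of these genes, and where a start is annotated most windows lay within 250 bp of it. Windows were listed for 74 of the 90 genes, 82.2%, beside 59.4% of all protein-coding genes. The share was 69 of 76 among the genes for subunit and stalk proteins, with all 30 small-subunit genes, 36 of 43 large-subunit genes and all 3 stalk genes. Of the 12 paralogues or copies, 4 had a window.

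The 7 subunit genes with no listed window were Rpl9, Rpl10a, Rpl19, Rpl22, Rpl23a, Rpl24 and Rpl29. The other 9 genes without one were Rps23rg1 and the paralogues or copies Rpl10l, Rpl31-ps12, Rpl32l, Rpl34-ps1, Rpl37rt, Rpl39l, Rps27l and Rps27rt. The smallest sum over the 5 libraries in any listed window was 33 counts, and how windows were picked is not stated, so the counts at genes without a window are unknown. Windows were listed but fell below the count filter for Rps23, Rps24, Rps27a and Rpl12, which left 70 genes tested.

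Promoter sequences are shown for the genes on which the account of position turns. They come from RefSeq (GRCm38.p6, the coordinates of mm10) and run from 250 bases before the annotated start base to 50 bases after it, and 69 of the 90 genes have one there. Rpl36a, Rpl35 and Rpl13a are the 3 genes whose promoter holds GAGGAAGT. Rpl10 and Rps27 are the 2 others with the highest PU.1 signal per kb among genes whose strongest window lay in the promoter. Rpl24 and Rpl9 had no listed window. Capitals mark every GGAA, or its complement TTCC, and each line reads in the direction of the gene.
Rpl36a, chrX:134585404-134585703, plus strand: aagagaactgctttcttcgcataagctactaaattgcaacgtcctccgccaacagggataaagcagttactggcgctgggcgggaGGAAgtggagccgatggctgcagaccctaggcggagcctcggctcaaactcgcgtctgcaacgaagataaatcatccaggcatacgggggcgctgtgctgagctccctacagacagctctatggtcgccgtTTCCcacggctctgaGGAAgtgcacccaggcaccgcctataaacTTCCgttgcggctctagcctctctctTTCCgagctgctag
Rpl35, chr2:39005082-39005381, minus strand: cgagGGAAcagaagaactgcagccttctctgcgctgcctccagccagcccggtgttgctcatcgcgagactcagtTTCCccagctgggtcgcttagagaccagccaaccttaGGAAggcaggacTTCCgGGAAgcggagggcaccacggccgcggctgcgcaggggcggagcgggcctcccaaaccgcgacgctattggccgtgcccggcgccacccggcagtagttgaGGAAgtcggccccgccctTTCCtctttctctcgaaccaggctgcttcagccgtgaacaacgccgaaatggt
Rpl13a, chr7:45128696-45128995, minus strand: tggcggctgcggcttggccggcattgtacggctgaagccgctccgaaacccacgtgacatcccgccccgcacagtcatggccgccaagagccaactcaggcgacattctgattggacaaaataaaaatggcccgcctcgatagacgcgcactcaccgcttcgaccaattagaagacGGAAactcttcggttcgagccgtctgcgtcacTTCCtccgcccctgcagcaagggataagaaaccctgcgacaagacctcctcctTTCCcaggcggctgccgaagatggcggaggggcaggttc
Rpl10, chrX:74270566-74270865, plus strand: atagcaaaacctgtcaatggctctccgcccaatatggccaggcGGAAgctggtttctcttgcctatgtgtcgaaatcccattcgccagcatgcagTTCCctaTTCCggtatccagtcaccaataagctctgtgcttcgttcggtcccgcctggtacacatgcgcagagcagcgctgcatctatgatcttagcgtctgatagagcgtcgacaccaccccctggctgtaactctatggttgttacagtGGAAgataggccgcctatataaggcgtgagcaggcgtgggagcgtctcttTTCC
Rps27, chr3:90213599-90213898, minus strand: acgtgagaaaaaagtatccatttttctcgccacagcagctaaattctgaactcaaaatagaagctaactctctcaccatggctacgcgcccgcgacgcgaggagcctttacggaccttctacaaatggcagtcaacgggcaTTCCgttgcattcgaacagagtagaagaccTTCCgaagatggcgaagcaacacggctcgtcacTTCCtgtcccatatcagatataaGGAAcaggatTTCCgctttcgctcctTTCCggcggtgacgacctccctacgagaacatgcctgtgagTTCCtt
Rpl24, chr16:55966025-55966324, plus strand: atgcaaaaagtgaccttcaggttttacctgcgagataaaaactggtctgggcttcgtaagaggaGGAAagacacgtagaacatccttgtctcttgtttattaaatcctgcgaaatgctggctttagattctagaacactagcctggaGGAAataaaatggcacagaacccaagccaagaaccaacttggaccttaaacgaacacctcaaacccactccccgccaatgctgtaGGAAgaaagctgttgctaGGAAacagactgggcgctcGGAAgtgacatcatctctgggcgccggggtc
Rpl9, chr5:65391382-65391681, minus strand: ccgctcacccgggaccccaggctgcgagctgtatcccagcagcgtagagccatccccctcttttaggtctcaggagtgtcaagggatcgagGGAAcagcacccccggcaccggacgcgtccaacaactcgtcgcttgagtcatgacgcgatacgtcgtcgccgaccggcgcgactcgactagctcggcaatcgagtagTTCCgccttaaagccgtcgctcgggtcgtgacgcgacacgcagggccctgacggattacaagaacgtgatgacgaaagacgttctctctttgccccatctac

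All 7 printed promoters hold the ETS core, those without any listed window included, and GGAA or TTCC was in 98.6% of the 69 promoters beside 95.8% of all 17492. GAGGAA, on either strand, was in 26.1% beside 27.5% of all promoters. The longer GAGGAAGT, which contains it, was in 4.35%, or 3 genes, beside 3.14%. In Rpl36a it starts 21 and 167 bases before the start base, and the strongest window was centred 49 bp upstream. In Rpl35 it starts 23 bases before the start base and the strongest window was at 24 bp upstream, and in Rpl13a the values were 44 and 60. Whether the motif and the strongest window go together was not tested.

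The letters of other ETS factors and of some promoter elements, but not TATAAA, were more frequent than in promoters at large. CCGGAAGT was in 11 promoters, 15.9%, beside 5.28%. It was found in Rpl11, Rpl19, Rpl26, Rpl31, Rpl35, Rpl37, Rpl41, Rps6, Rps18, Rps25 and Rps27l, of which Rpl19 and Rps27l had no listed window. Its distance from the strongest window varied widely. In Rps18 it starts 75 and 157 bases before the start base, with that window 90 bp upstream. In Rpl26 it starts 4 bases after, with the window 11 bp upstream. In Rpl37 and Rpl41 it starts 23 and 56 bases before, with the window 792 and 1713 bp downstream. AAGATGGC, a YY1-type motif, was in 8.70% beside 3.21%, and TATAAA was in 13.0% beside 13.3%. A TOP-like start, here a C at the start base or the next base followed by at least 4 pyrimidines, was in 18 promoters, 26.1%, beside 4.46%. These shares describe letters in a window and were not tested.

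Counted windows were packed around the start. Of 470 windows in genes with an annotated start, 297 (63.2%) had their centre within 250 bp of it, and 362 (77.0%) within 500 bp. Over all genes 13.7% of 173511 windows did so within 250 bp. The strongest window, the one with the highest PU.1 signal, lay within 250 bp of the start in 37 of 56 genes, 66.1%, beside 23.4% of 10381 genes. Its median distance was 79.5 bp beside 3302 bp over all genes, and it was upstream of the start base in 32 of the 56. These genes are also short, with a median span of 3169.5 bp beside 17169 bp, which limits how far a window can be.

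Around the starts, the cDC libraries had 75.9% and 77.1% of their counts within 250 bp, out of those within 1 kb, and the pDC libraries had 77.2% and 77.4%. The input had 70.1% there. The profile was thus much alike in the 4 PU.1 libraries. Counts exist only where a window was listed, in the input too, so its share near the start follows in part from where windows were listed.

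**Figure D1:**
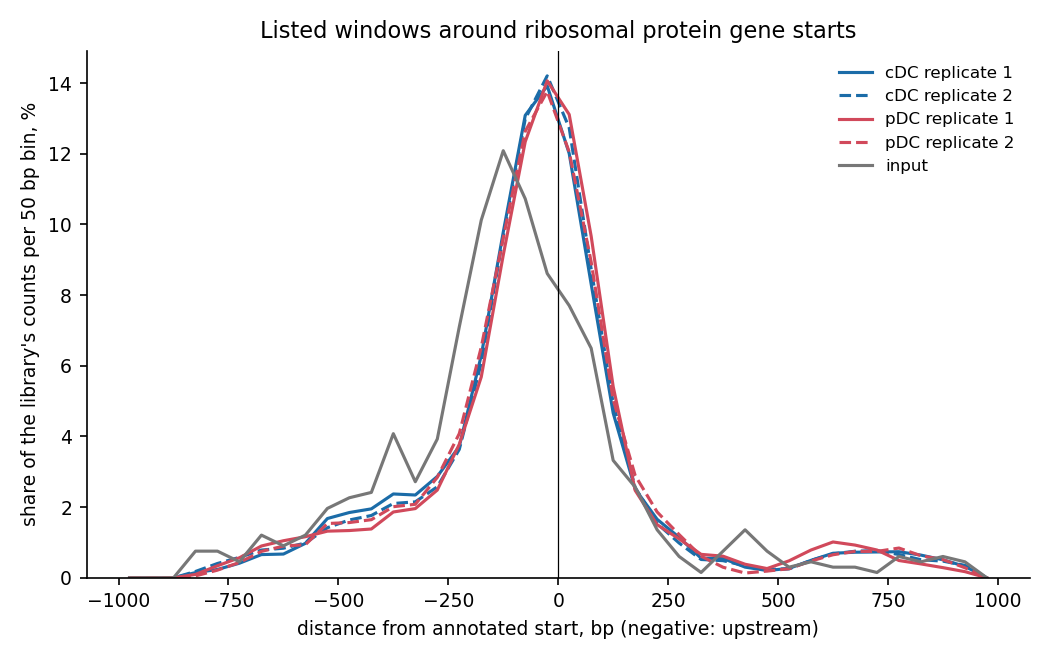
Share of each library's counts (vertical axis, % per 50 bp bin) by distance from the annotated start of ribosomal protein genes (horizontal axis, bp, negative values upstream), in listed windows. Lines are the 4 PU.1 libraries and the input. The PU.1 libraries are highest in the 50 bp just upstream of the start and the input farther upstream, with 75.9% to 77.4% of PU.1 counts and 70.1% of input counts within 250 bp.

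In 12 of the 56 genes the strongest window was over 500 bp from the annotated start. The start used was the most upstream one with a promoter sequence. At some genes, such as Rpl18, Rpl38 and Rps2, it lies inside the span, so a window upstream of it can lie within the gene. At Rpl18 the strongest window lay at -1816 bp from that start, inside the span and 788 bp from its nearer end. Rps9, a small-subunit protein gene, had its strongest region past the far end of the gene, with a window 308 bp beyond the span and 3164 bp from the start. That region held 47.2 and 42.6 CPM (counts scaled to a common library size, per 1000000) in cDCs and 47.9 and 51.8 CPM in pDCs, while a region before the span, from -749 to -549 bp, held between 8.69 and 10.6 CPM in the 4 libraries. Rpl4, a large-subunit gene, had its only region outside its span, with the strongest window 743 bp from the end, in windows that also belong to the locus of Snapc5.

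Regions were formed by joining listed windows of a gene at most 100 bp apart. The 74 genes had 102 regions with a median width of 260 bp, and the widest was 810 bp. A single region was found in 52 genes, 2 regions in 16 and 3 regions in 6. Without a strand or exon annotation for all genes, a position is given only by its distance from the gene span or start.

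PU.1 signal per kb of locus was higher at these genes than at the typical gene, and it ranged widely among them. Levels are CPM per kb, averaged over the 4 PU.1 libraries. The median was 4.07 over the 70 tested genes beside 0.736 over all 12460 tested genes, and the genes spread from 0.139 at Rpl36 to 21.6 at Rpl41. The 99th percentile of all genes was 12.04. Small-subunit genes had a median of 5.82 and large-subunit genes of 3.06. Since their loci are short, a region of ordinary height gives a high value per kb: the median sum per gene was 23.9 CPM beside 21.9 CPM over all genes.

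Some of the highest levels belong to windows shared with a neighbour. The locus of Rpl41, which encodes the smallest ribosomal protein, read 65.4 and 75.2 CPM in cDCs and 67.4 and 56.8 in pDCs, so the cell types overlapped. Of its 19 windows 14 also lie in the locus of Zc3h10, and its own windows alone gave 1.86 CPM per kb. At Rpl18 all 27 windows were shared with Sphk2, at Rps25 all 15 with Trappc4, and at Rps27 all 8 with Rab13. Rpl18 read 128 and 122 CPM in cDCs and 135 and 106 in pDCs, Rps25 read 51.9 and 50.6 in cDCs and 78.5 and 51.3 in pDCs, and Rps27 read 32.8 and 27.9 in cDCs and 29.8 and 25.4 in pDCs. At all 3 genes the values of the cell types overlapped. In total 19 of the 74 genes shared a window with another gene and 15 shared all of them, and which gene such signal belongs to was not tested.

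Among genes that shared no window, Rpl36a (13.6 CPM per kb), Rpl27 (11.8), Rps9 (11.6), Rps21 (10.4) and Rpl10 (10.3) had high levels. Rpl36a, a large-subunit gene on chromosome X, read 47.3 and 59.9 CPM in cDCs and 74.5 and 57.6 in pDCs. Its strongest window, in the promoter printed above, had 97 and 121 reads in cDCs, 102 and 57 in pDCs and 0 in the input. Rpl10, whose protein is needed for the subunits to join, read 43.1 and 38.5 CPM in cDCs and 48.7 and 47.1 in pDCs. Rpl27 read 65.3 and 68.0 CPM in cDCs and 67.8 and 50.8 in pDCs, so only Rpl10 of these 3 had groups that did not overlap, and its log2 fold was 0.23 ± 0.19 (adjusted p = 0.489, edgeR). Rps9 summed to 56.2 and 53.0 CPM in cDCs and 57.0 and 62.3 in pDCs, and Rps21 to 26.0 and 29.1 in cDCs and 42.6 and 30.4 in pDCs. Levels from Rpl27 down to Rpl10 in this order were closer to each other than the pDC libraries of Rpl27 were.

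The stalk genes, whose proteins recruit the elongation factors, were far apart in level over their tested windows. Rplp1 read 39.4 and 28.1 CPM in cDCs and 29.0 and 22.5 in pDCs, or 9.22 CPM per kb. Rplp0 and Rplp2 each had 1 tested window and 0.176 and 0.177 CPM per kb. Rplp0 read 1.10 and 1.90 CPM in cDCs and 0.923 and 0.483 in pDCs. Rplp2 read 1.28 and 1.04 in cDCs and 0.923 and 0.804 in pDCs. At both Rplp0 and Rplp2 the cDC values of the tested window were the higher ones, at very low counts. The strongest listed window of Rplp2 fell below the count filter, so its level here comes from 1 of 5 listed windows. The region that holds that strongest window read 4.48 and 1.99 CPM in cDCs and 2.77 and 2.73 in pDCs, where the groups overlapped. With no filter on windows the log2 fold of Rplp2 was -0.26, in place of -0.41. All 5 listed windows of Rplp2 also lie in the locus of Pidd1.

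**Figure D2:**
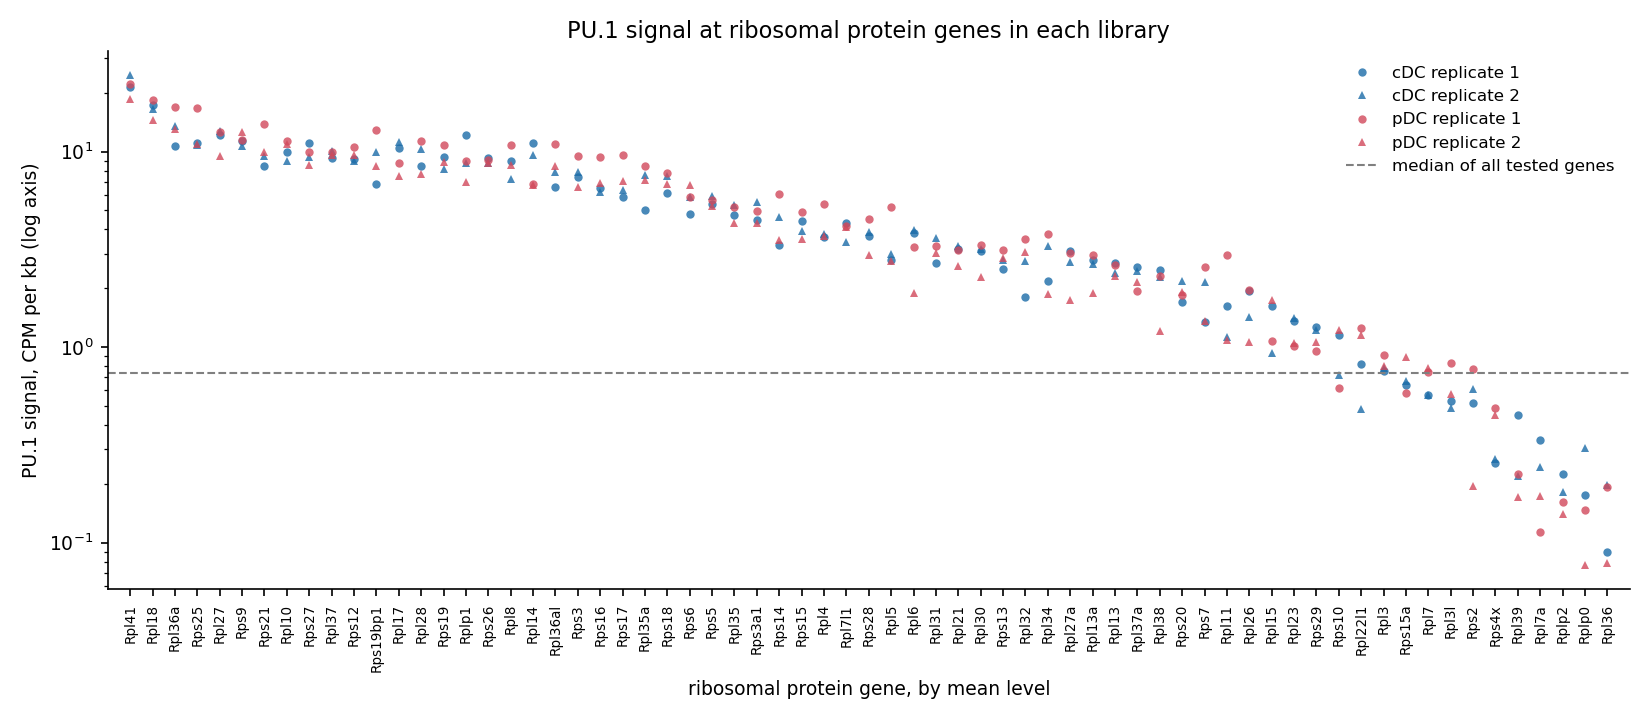
PU.1 signal (vertical axis, CPM per kb, log axis) of 67 tested ribosomal protein genes (horizontal axis, ordered by mean level), 1 point per library, circles for replicate 1 and triangles for replicate 2. cDC (blue) and pDC (red) points lie close together at most genes, and most genes lie above the dashed median of all genes, 0.736.

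Whether these windows stood above the input depended on how the libraries were scaled. With totals over windows as library sizes, 259 of 544 tested windows (47.6%) were at least 2-fold above input in cDCs at an adjusted p under 0.05 (edgeR), and 247 (45.4%) in pDCs, where 35.4% and 31.3% of all windows were. Both cell types shared 229 of these windows, which is 88.4% of those in cDCs and 92.7% of those in pDCs. The input, however, had 74.6% of its counts in 146 windows with at least 1000 input counts each, called repeat windows here, and the PU.1 libraries had 9.15% to 18% there. With repeat windows left out of the library sizes, 10 windows (1.84%) were above input in cDCs and 12 (2.21%) in pDCs, beside 1.38% and 1.71% of all windows.

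Windows of these genes had higher ratios to input than windows in general. The median log2 ratio to input was 2.58 in cDCs and 2.49 in pDCs, beside 1.96 and 1.85 for all windows, and 0.77 and 0.76 beside 0.16 and 0.12 with the repeats left out. The difference was 0.62 in cDCs and 0.64 in pDCs under both scalings, which follows from the arithmetic, since a change of library size shifts all windows alike. Against windows at the starts of all genes there was little difference: medians within 250 bp of a start were 2.48 in cDCs and 2.44 in pDCs for these genes, beside 2.49 and 2.47. Of these start windows 49.3% and 46.7% were above input in cDCs and pDCs, beside 40.9% and 38.8% of start windows of all genes. Input counts behind the ratios were small, with a median of 1 and at most 7 per window, and 117 windows had 0.

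By gene, 49 of the 70 had at least 1 window above input in cDCs (70.0%, beside 69.6% of all tested genes), 51 in pDCs (72.9% beside 66.8%) and 48 in both. There were 18 with none in either cell type. These counts hold for totals as library sizes: with repeat windows left out, the 10 windows above input in cDCs and 12 in pDCs limit the genes to at most as many. The 18 genes with no window above input under totals included Rplp0, Rplp2, Rps7, Rps15a, Rpl3, Rpl15, Rpl23 and Rpl26. Of the 36 genes with a promoter sequence and a window above input in both cell types under totals, 30.6% held GAGGAA and 19.4% held CCGGAAGT. The shares of all promoters were 27.5% and 5.28%. Of the 13 with a promoter sequence and no listed window, 15.4%, or 2 genes, held each. Most of those 13 are paralogues, copies or Rps23rg1 and not subunit genes, and these shares were not tested.

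Few ribosomal protein genes differed in PU.1 signal between pDCs and cDCs by the test. Of the 70 genes 1 was called higher in pDCs, and none was called higher in cDCs. That is 1.43%, beside 14.0% of all 12460 genes (1040 higher in pDCs and 707 in cDCs; edgeR quasi-likelihood test on gene sums, adjusted p under 0.05, n = 2 libraries per cell type). At an unadjusted p under 0.05 (edgeR) there were 4 genes, 5.71% beside 27.2%. The median log2 fold, pDC minus cDC, was 0.03 with quartiles of -0.16 and 0.29, beside 0.06 with quartiles of -0.26 and 0.38 over all genes. Within 0.5 of 0 were 84.3% of these genes and 67.2% of all genes, while the median SE was 0.27 and 0.28.

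A low share of calls was also found at other genes with signal at the start. Among all genes whose strongest window lay within 250 bp of the start, 3.90% were called, and 0 of the 36 ribosomal protein genes of that kind. For these genes 0 of 36 is therefore close to what such genes show in general. With genes cut by mean CPM into 4 equal groups, from low to high, 7.99%, 11.1%, 15% and 22.0% of all genes were called, and 0 of 16, 0 of 19, 0 of 25 and 1 of 10 ribosomal protein genes. The values of the cell types did not overlap at 26 of the 70 genes (37.1%, 16 of them higher in pDCs), beside 56.1% of all genes.

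**Figure D3:**
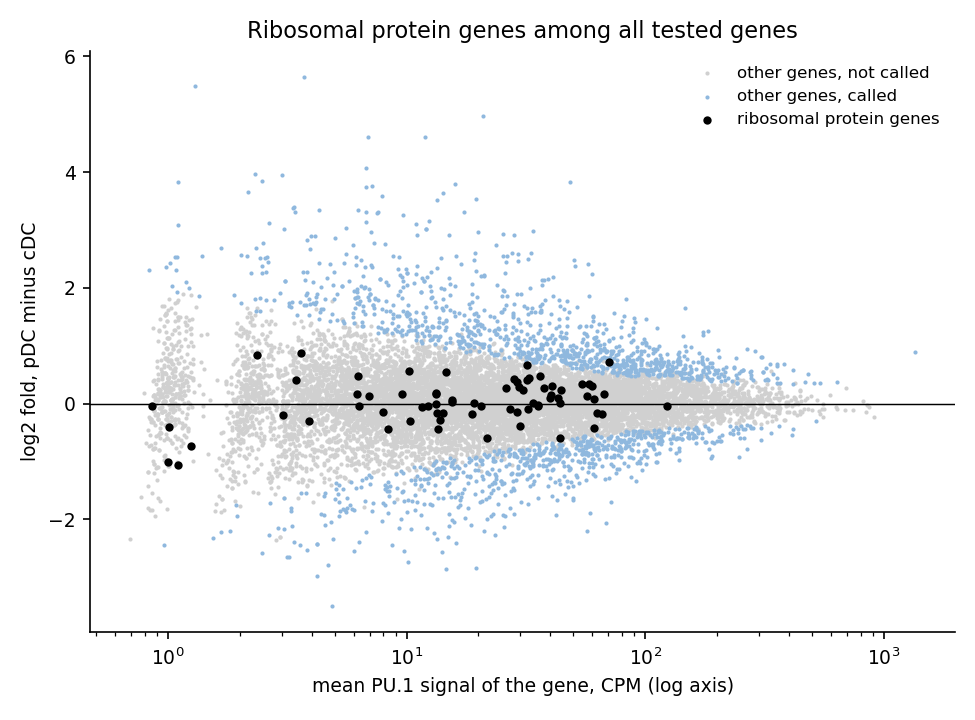
Log2 fold of PU.1 signal, pDC minus cDC (vertical axis), against mean signal in CPM (horizontal axis, log axis), 1 point per tested gene. The 70 ribosomal protein genes (black) lie between -1.05 and 0.88, inside the cloud of all genes (grey, and light blue where called).

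Rpl14, a large-subunit gene on chromosome 9 (120571517 to 120574653), gave the lowest p among genes with more signal in cDCs. It read 56.5 and 49.2 CPM in cDCs and 34.9 and 34.7 in pDCs, without overlap. The log2 fold was -0.60 ± 0.19 and missed the threshold (adjusted p = 0.0577, edgeR). It passed when libraries were scaled by totals (-0.73, adjusted p = 0.0312, edgeR). It did not with 10 kb on each side (-0.31, adjusted p = 0.249, edgeR). Over 15 other settings the fold of Rpl14 ran from -0.73 to -0.31. Its region lies upstream of the start, between 12 and 562 bp before the span.

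**Figure D4:**
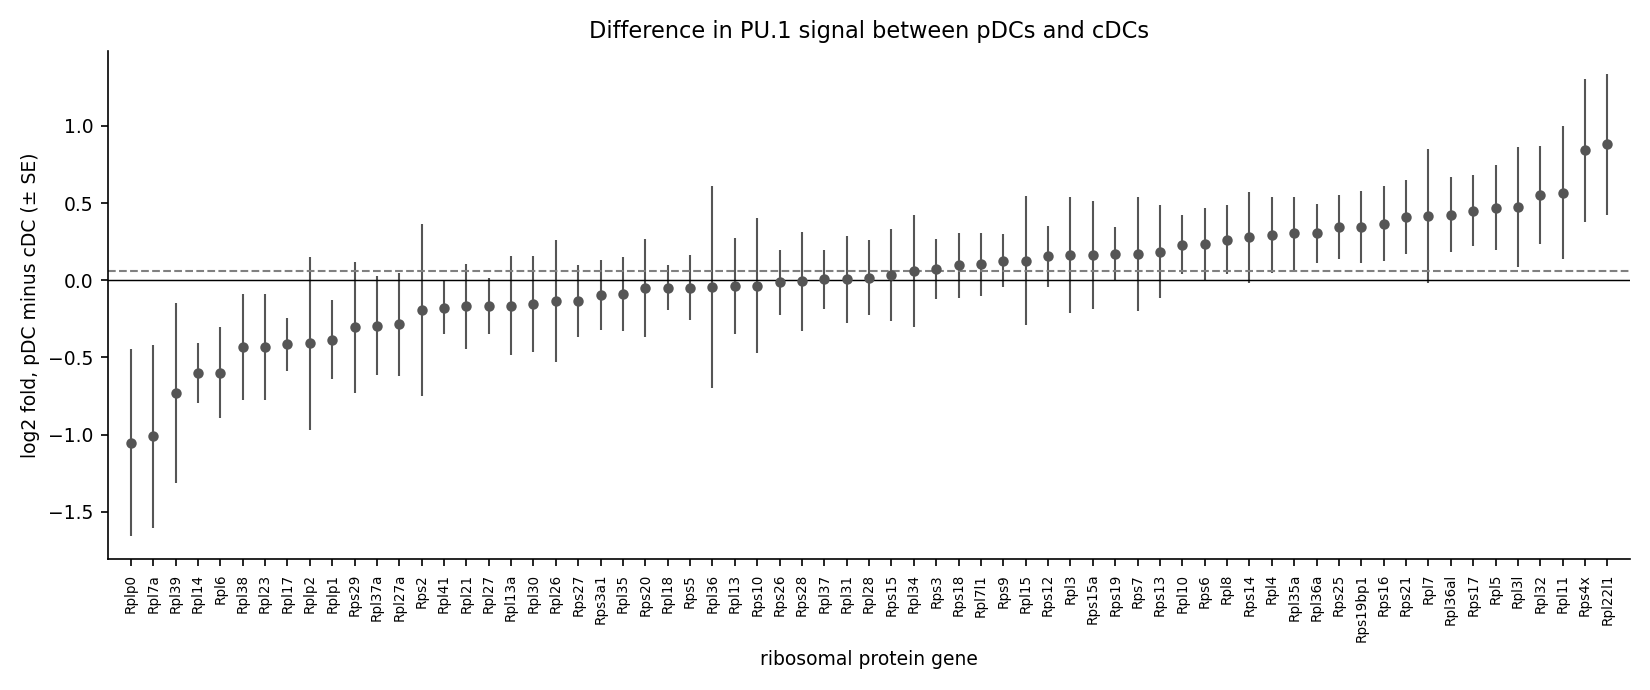
Log2 fold of PU.1 signal, pDC minus cDC (vertical axis, ± SE), for 67 tested ribosomal protein genes (horizontal axis, ordered by fold). None of those plotted passed the threshold, and folds run from -1.05 to 0.88; the dashed line is the median of all genes, 0.06.

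The largest folds in either direction were at genes with few reads and did not pass the test. Rpl22l1, the paralogue of Rpl22, read 3.20 and 1.90 CPM in cDCs and 4.88 and 4.50 in pDCs (log2 fold 0.88 ± 0.46, adjusted p = 0.238, edgeR). Rps4x, the X-linked small-subunit gene, read 1.65 and 1.73 in cDCs and 3.16 and 2.90 in pDCs (0.84 ± 0.46). At the other end were Rplp0 (-1.05 ± 0.61), Rpl7a (-1.01 ± 0.59) and Rpl39 (-0.73 ± 0.58), each with 1 tested window. Rpl7a read 1.55 and 1.12 CPM in cDCs and 0.527 and 0.804 in pDCs. Its tested window lay outside the gene, 693 bp from the end of the span. All 5 listed windows of Rpl7a also lie in the locus of Med22 or Surf1. A region of Rpl7a near its start, below the count filter, read 2.47 and 1.90 CPM in cDCs and 5.93 and 1.29 in pDCs. Rpl39 read 2.10 and 1.04 CPM in cDCs and 1.05 and 0.804 in pDCs, where the groups overlapped. Rpl11, whose protein with Rpl5 binds the p53 regulator MDM2, read 9.79 and 6.82 CPM in cDCs and 17.8 and 6.595 in pDCs, so its fold of 0.57 ± 0.43 came from pDC replicate 1 alone. Without that library it was -0.33.

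By role, both subunit classes had small medians. The 35 tested large-subunit genes had a median log2 fold of -0.04 with 0 called, and the 27 small-subunit genes had 0.16. The 4 paralogues or copies tested, Rpl22l1, Rpl3l, Rpl36al and Rpl7l1, had a median of 0.45 and a range of 0.10 to 0.88, with 0 called. The 3 stalk genes had a median of -0.41 and a range of -1.05 to -0.39, with 0 called. Rps19bp1, which encodes a protein that binds Rps19 and is no part of the ribosome, had 0.34. Scaling by totals moved the median of all genes from 0.06 to -0.07 and that of the ribosomal protein genes from 0.03 to -0.10, so the sign of these small medians depends on the scaling.

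Single windows differed within genes whose sum did not. Of 544 tested windows 13 were called (2.39%, 7 higher in pDCs and 6 in cDCs), beside 14.4% of all windows. Within 250 bp of a start 1 of 274 was called (0.365%), beside 3.07% of such windows in all genes. The 13 windows fell in 4 regions, among them 1 at Rpl17 and 1 at Rpl6. Neighbouring windows share reads, so the windows of a region are not separate observations.

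Rpl17, a large-subunit gene (chromosome 18, 74998978 to 75003381), had 2 regions inside its span that differed in pattern. The first, 1327 to 1677 bp from the lower end, read 47.6 and 54.3 CPM in cDCs and 51.2 and 41.8 in pDCs, and none of its 8 windows was called. The second, 2777 to 2977 bp from that end, read 19.6 and 17.6 CPM in cDCs and 4.88 and 6.27 in pDCs. All 5 of its windows were called, with log2 folds of -1.90 to -1.49 (adjusted p from 0.00178 to 0.0410, edgeR). The window with the lowest p had 59 and 56 reads in cDCs, 10 and 10 in pDCs and 2 in the input. The gene sum, in which the first region weighs more, had a log2 fold of -0.42 ± 0.17 (adjusted p = 0.133, edgeR). The difference between the regions was not tested.

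Rpl6, a large-subunit gene (chromosome 5, 121204501 to 121209241), had 1 called window, 96 bp upstream of its start. It had 51 and 49 reads in cDCs and 20 and 7 in pDCs (log2 fold -1.19, adjusted p = 0.0351, edgeR). The gene read 25.8 and 26.9 CPM in cDCs and 21.9 and 12.7 in pDCs, so the replicates in pDCs were far apart (-0.60 ± 0.30, adjusted p = 0.213, edgeR).

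**Figure D5:**
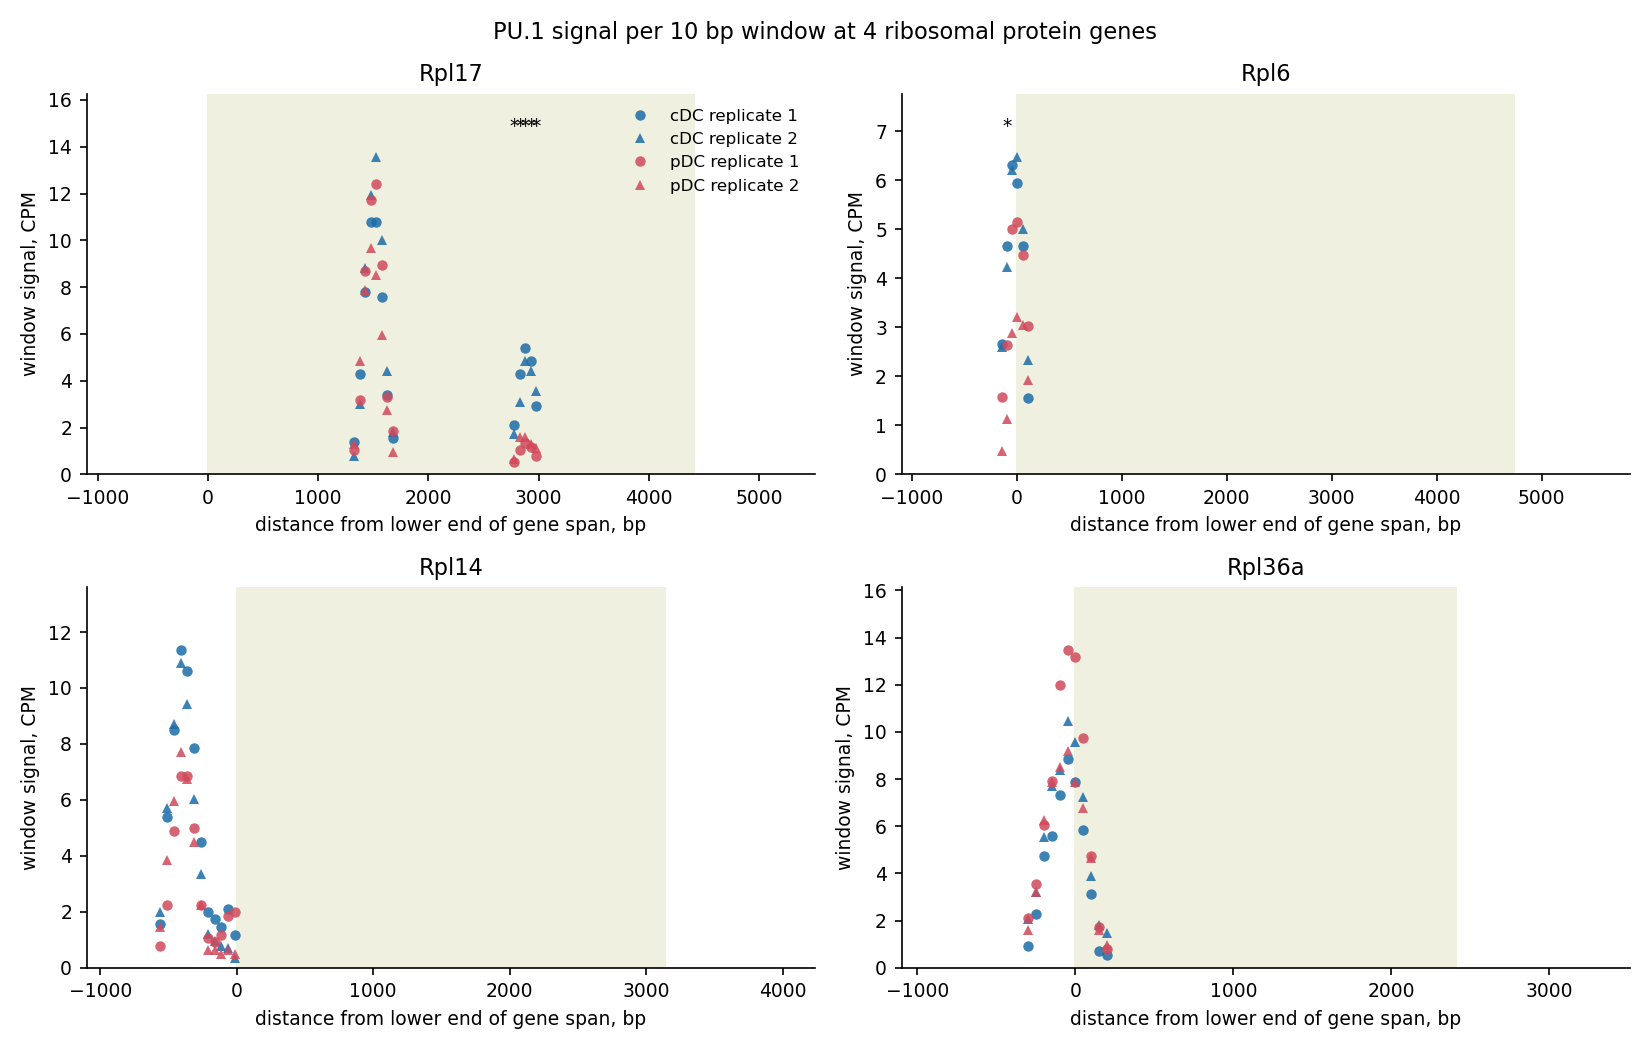
Signal of each listed window (vertical axis, CPM) at Rpl17, Rpl6, Rpl14 and Rpl36a by distance from the lower end of the gene span (horizontal axis, bp), 1 point per library, with the span shaded and called windows starred. At Rpl17 only the second region carries stars, Rpl6 has 1 starred window, and Rpl14 and Rpl36a have none.

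Other genes of translation were compared by list. Of the 4 ribosomal protein genes whose symbols fall outside the rule, 3 were tested and none was called, with log2 folds of 0.10 for Rpsa and 0.36 for Rack1, and Fau was not tested. Of 58 tested genes for mitochondrial ribosomal proteins 1 was called, Mrpl42 (-2.17), which is 1.72%, with a median of 0.16. None of 6 tested Rps6k kinase genes was called. Of 40 tested elongation and initiation factor genes, the helicase cofactor gene Eif4h was higher in pDCs (0.82) and Eif5b, whose product joins the subunits, was higher in cDCs (-0.88).

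Ribosome biogenesis genes had 3 calls among 44 tested. Taf1b (1.70), for a factor of RNA polymerase I initiation, and Sbds (0.99), for a factor that matures the large subunit, were higher in pDCs. Polr1a, for the largest subunit of RNA polymerase I, was higher in cDCs (-0.51), at 288 and 289 CPM in cDCs and 183 and 221 in pDCs. Among 12 tested genes that regulate TOP mRNAs and mTORC1, Tsc2, for an inhibitor of mTORC1, was higher in pDCs (2.37), at 2.74 and 1.64 CPM in cDCs and 15.4 and 7.08 in pDCs. All of these calls are at an adjusted p under 0.05 over all 12460 genes (edgeR). The shares of these 3 lists called, 5% to 8.33%, were below the 14.0% of all genes. They were above the 3.90% of genes whose strongest window lay within 250 bp of the start. Each share rests on few calls, 8.33% on Tsc2 alone, and none was tested.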

How the data were processed

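The deposited values are read counts per window of 10 bp on a 50 bp grid, not normalised by the authors. Subread 1.4.4 and mm10 are named in the submitters' processing notes. The sources used here do not state its step, how reads were extended or how windows were picked. Reads were 49 bp and single-end. Total sequencing depth is unknown, and PCR duplicates are not told apart.

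Genes are from RefSeq (GRCm38.p6). Windows were kept with filterByExpr at a minimum count of 10 (286435 kept), summed per gene span with 1 kb on each side, and tested over all 12460 genes by quasi-likelihood in edgeR 4.0.16 (GenomicRanges 1.54.1, limma 3.58.1, R 4.3.3). TMM factors came from windows, the model held cell type alone, and Benjamini-Hochberg adjusted p-values were cut at 0.05. The same test was run on windows, and against input in a fit of all 5 libraries where the lone input library is taken to vary as the others do. CPM uses the TMM-adjusted library sizes; SE is that implied by the F statistic. The coefficient of variation was 0.172. An exact permutation test of 2 against 2 cannot go below p = 0.333. DESeq2 1.42.0 was an alternative. Scripts were tested on simulated data.

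Replicates differed by more than counting error (mean chi-square per window 1.40 for cDCs and 2.16 for pDCs). Genes given values in every library are those called, those with the highest CPM per kb, the 5 largest folds in each direction, those with a called window, and the stalk genes; the region values of Rps9 were chosen after they were seen. Values of some genes are not reported here. The genes, lists and motifs were chosen with earlier results of these data known.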

Additional observations from a re-analysis of the deposited data

How the results depend on the processing

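The count of 1 called ribosomal protein gene stayed at 1 when libraries were scaled by totals or by TMM from gene sums (Rpl14, higher in cDCs, under these), with no window filter, in the gene span alone, on windows of no other gene, in a fit of all 5 libraries and with repeat windows left out. It was 2 with DESeq2, 2 with windows of a mean of at least 30 counts, 8 with 10 kb on each side and 0 when tested against a minimum fold of 1.5. Leaving out 1 library gave 0 to 13, with 0 without either cDC library, 5 without the first pDC library and 13 without the second; the cause was not tested. Over all genes the count of 1747 became 359 against the minimum fold and 577 to 4152 with 1 library left out, and scaling by totals changed 1040 higher in pDCs and 707 in cDCs to 657 and 988. The 13 called windows became 3 to 41 with 1 library left out. Windows above input fell from 259 in cDCs and 247 in pDCs to 26 and 32 with TMM and to 10 and 12 with repeat windows left out of library sizes. Of the 13 genes recomputed singly under each alternative, 4 changed sign, none of them called with 1 kb on each side: Rpl7a to 0.13 with no filter, and, with 10 kb, Rpl39 to 0.041, Rplp2 to 0.20 and Rpl11 to -0.56, which was -0.33 to 1.10 when 1 library was left out. Replicate numbers were not shown to pair the libraries (correlation of deviations -0.0219); with the replicate block 1 ribosomal protein gene and 13 windows were called, and 2029 of all genes. With 2 libraries per cell type, 963 input counts in all windows of these genes and low counts at single-window genes, small differences were not detectable.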

Other observations

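With 10 kb on each side in place of 1 kb, signal of neighbouring sites enters and 8 of 79 tested ribosomal protein genes were called (edgeR, adjusted p under 0.05), beside 16.5% of all genes. Rpl31 had a log2 fold of 1.66 (adjusted p = 0.000665, edgeR) and Rps27a of 1.75 (0.0123), both higher in pDCs. Rpl13a (0.57) was also higher in pDCs. Rplp1 (-0.96, adjusted p = 0.00293, edgeR), Rps27l (-0.80) and Rpl11 (-0.56) were higher in cDCs. None of these named genes was called with 1 kb. The gene to which the added sites belong was not tested.

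Without pDC replicate 2, 12 ribosomal protein genes were called higher in pDCs and 1, Rpl14, higher in cDCs, while 33.3% of all genes were called. Without pDC replicate 1, 1 gene was called higher in pDCs and Rpl6, Rpl14, Rpl17 and Rpl38 higher in cDCs, beside 19% of all genes. Rpl14 had a log2 fold of -0.60 in both, and of -0.50 and -0.70 without the first and the second cDC library.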
